A study of Mus musculus with 20 samples.

Results

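Dendritic epidermal T cells (DETCs), the γδ T cells of the mouse epidermis, expressed 7 of 10 innate-like receptor and adaptor genes at levels that lay above every keratinocyte library. *Klrk1*, *Cd96* and *Fcer1g* had the most normalized counts, with means of 1509, 704 and 825 in DETCs and at most 15.6 in any keratinocyte population. Per kilobase of exon the DETC means were 944 for *Fcer1g*, 322 for *Cd96*, 210 for *Klrk1* and 187 for *Klrd1*. The adaptor gene *Tyrobp* stood apart from the other members, with 1 to 12 reads per DETC library and its highest values in 2 libraries of hair follicle stem cells. *Klre1* and *Klrg1* were at or near the limit of detection in every population.

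The 10 members were the rows of the normalized count table whose gene name is *Klrk1*, *Klrd1*, *Klre1*, *Klrg1*, *Klrc1*, *Cd160*, *Cd96*, *Hcst*, *Tyrobp* or *Fcer1g*, among 53380 genes in all. Bulk RNA-seq had been made from cells sorted out of mouse dorsal epidermis, in 20 libraries of 5 populations. These were DETCs (α6-Sca1lowThy1+, n = 5), Thy1hi keratinocytes (α6+Sca1+Thy1hi, n = 4), Thy1- keratinocytes (α6+Sca1+Thy1-, n = 4), hair follicle stem cells (HFSCs, α6+Sca1-CD34+, n = 4) and YFP+ Thy1hi keratinocytes (n = 3). The study's methods give untreated wild-type C57BL/6J mice of 8 weeks for the first 4 populations. For the YFP+ cells they give mice carrying a tamoxifen-inducible Cre recombinase driven by *Thy1* and a Rosa26 EYFP reporter, so that these cells were marked through the promoter of the gene used to sort them. The study describes tamoxifen induction of such mice and sequencing of labelled cells after recombination. By this account the YFP+ cells differ from the first 4 populations in both treatment and genotype. The sample labels instead give the genotype Thy1.2CreERT2-Rosa26-EYFP and no treatment for all 20 samples, name the YFP+ cells as lacking Sca1, and give ages that run from 8 to 27 weeks. The legend of the study's heatmap gives 4 mice for DETCs and 5 for HFSCs, the reverse of the libraries here, and another legend gives 5 pooled mice. The sources do not settle how many mice entered a library, and p-values measure only the spread between these libraries, which may be technical. DETC libraries are named 1, 2, 3, a and b, because the numbers of the last pair match no label.

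Innate-like receptors let T cells and natural killer (NK) cells respond to stressed cells without antigen. NKG2D, encoded by *Klrk1*, recognizes stress-induced ligands of the RAE-1, H60 and MULT1 families and is carried by DETCs at rest. Most such receptors lack a signalling tail and borrow one from a small adaptor: DAP10 (*Hcst*), which recruits PI3-kinase, or DAP12 (*Tyrobp*) and the Fc receptor γ chain (*Fcer1g*), whose tyrosine motifs recruit the kinases Syk and Zap70.

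Sequencing depth was 7781256 to 12982393 reads on genes per library, so that 1 read was worth about 1 normalized count. DETC libraries carried the variable segments typical of the epidermal γδ receptor, with *Tcrg-V5* at 440 to 751 and *Trdv4* at 2077 to 3868 normalized counts, against at most 10.5 and 40.8 in the 15 other libraries. All 8 T cell markers examined had reads in every DETC library. DETC libraries also held RNA of other cells: the summed level of 8 keratinocyte markers was 24005 to 85335 (114189 to 339978 in keratinocyte libraries), and that of 9 Langerhans cell markers was 1187 to 3416. DETC a had the lowest values of both sums. HFSC 4 stood apart from the other HFSC libraries, with 13.1% of reads on the ribosomal RNA gene *Rn45s* against 38.3 to 41.5%, and with 1.40 normalized counts of the Langerhans cell gene *Cd207* against 424 to 958. In bulk samples, fewer cells of a type and less RNA per cell cannot be told apart.

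The members fall into few loci (mm10). Of the 10, 5 are lectin-like receptor genes on chromosome 6. *Klre1* (ENSMUSG00000050241.8, 129577905 to 129585827, plus strand), *Klrd1* (129591782 to 129598775, plus strand), *Klrk1* (ENSMUSG00000030149.15, 129610323 to 129623864, minus strand) and *Klrc1* (129666015 to 129678973, minus strand) lie within 101069 bases, while *Klrg1* lies apart (122270596 to 122282882). *Tyrobp* (30413760 to 30417585) and *Hcst* (30417712 to 30419854) are neighbours on chromosome 7 that face each other on opposite strands, with 126 bases between their 3′ ends. *Fcer1g* is on chromosome 1 (171229572 to 171234365), *Cd160* on chromosome 3 (96798763 to 96829351), where its exons overlap those of *Pdzk1*, and *Cd96* on chromosome 16 (46035657 to 46120251). The neighbours did not share a level: *Klrk1* and *Klrd1* were abundant in DETCs and *Klre1* was not, and *Hcst* had 16 to 63 reads per DETC library where *Tyrobp* had 1 to 12.

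Promoter windows of 250 bases before the start, taken from RefSeq (GRCm38.p6), were found for 7 of the 10 members, with none for *Klrd1*, *Klrg1* and *Tyrobp*. They are shown for 4 members that were high in DETCs together and whose windows hold no exon of the gene itself. A further window of *Cd160* (chr3:96814522-96814771), also without an exon of the gene, is not shown. It holds 1 RUNX core and 1 ETS match. Capitals mark a match to 1 of the motifs searched on both strands, the RUNX core TGTGGT, which reads ACCACA on the other strand, or the ETS motif CAGGAAG, which reads CTTCCTG there. RUNX factors act in T cell development and ETS factors in lymphoid cells generally.
*Klrk1*, chr6:129623865-129624114, minus strand: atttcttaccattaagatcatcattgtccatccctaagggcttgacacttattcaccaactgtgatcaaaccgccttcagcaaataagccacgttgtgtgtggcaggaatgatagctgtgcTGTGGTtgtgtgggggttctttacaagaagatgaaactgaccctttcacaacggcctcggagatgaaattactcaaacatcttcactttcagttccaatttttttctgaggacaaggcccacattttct
*Klrc1*, chr6:129678974-129679223, minus strand: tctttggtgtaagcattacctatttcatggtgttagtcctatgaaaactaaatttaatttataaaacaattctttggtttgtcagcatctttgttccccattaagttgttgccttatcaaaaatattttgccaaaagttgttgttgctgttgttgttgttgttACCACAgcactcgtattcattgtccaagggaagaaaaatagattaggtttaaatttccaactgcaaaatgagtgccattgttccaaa
*Cd160*, chr3:96829352-96829601, minus strand: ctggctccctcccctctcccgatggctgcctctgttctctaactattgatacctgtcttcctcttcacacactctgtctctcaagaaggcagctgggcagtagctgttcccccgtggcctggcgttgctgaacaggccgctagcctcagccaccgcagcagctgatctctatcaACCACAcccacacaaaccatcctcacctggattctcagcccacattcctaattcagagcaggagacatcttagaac
*Hcst*, chr7:30419855-30420104, minus strand: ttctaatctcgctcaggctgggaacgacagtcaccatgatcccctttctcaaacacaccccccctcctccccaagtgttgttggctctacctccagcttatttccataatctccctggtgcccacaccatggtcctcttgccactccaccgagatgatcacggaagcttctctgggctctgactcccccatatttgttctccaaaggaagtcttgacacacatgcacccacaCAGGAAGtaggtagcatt
A RUNX core was in at least 1 window of 5 of the 7 members (*Klrk1*, *Klre1*, *Klrc1*, *Cd160* and *Cd96*), and in 14.0% of 32851 promoters of the same length. *Klre1* and *Cd160* had more than 1 window, and so more chances of a match than a single promoter. The ETS motif was in windows of 3 members (*Cd160*, *Hcst* and *Fcer1g*) and in 10.8% of all promoters. The T-box motif AGGTGTG, which reads CACACCT on the other strand and is held by 5.1% of promoters, was in none of the members' windows. No motif overlapped another. The matches are letters only, and *Klre1*, with a RUNX core before 1 of its 2 starts, was not abundant in DETCs.

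In DETCs against Thy1hi keratinocytes, 7 of the 8 members tested were called higher, where 19.9% of all 17204 genes tested were called higher in DETCs. The numbers were 7 of 8 against Thy1- keratinocytes (background 18.9%), 7 of 8 against HFSCs (21.2%) and 8 of 8 against YFP+ Thy1hi keratinocytes (20.5%). A gene was tested where it had at least 10 normalized counts in at least 3 libraries, and called where the adjusted p of limma was under 0.05. *Klrk1*, *Cd96* and *Fcer1g* would have been tested without any DETC library, while the other 5 passed only with DETC values counted, so that their inclusion already depended on being present there. The median log2 fold change of the 8 against Thy1hi keratinocytes was 6.35, beside -0.0044 over all genes tested. The 4 comparisons share the DETC libraries and are not independent.

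**Figure D1:**
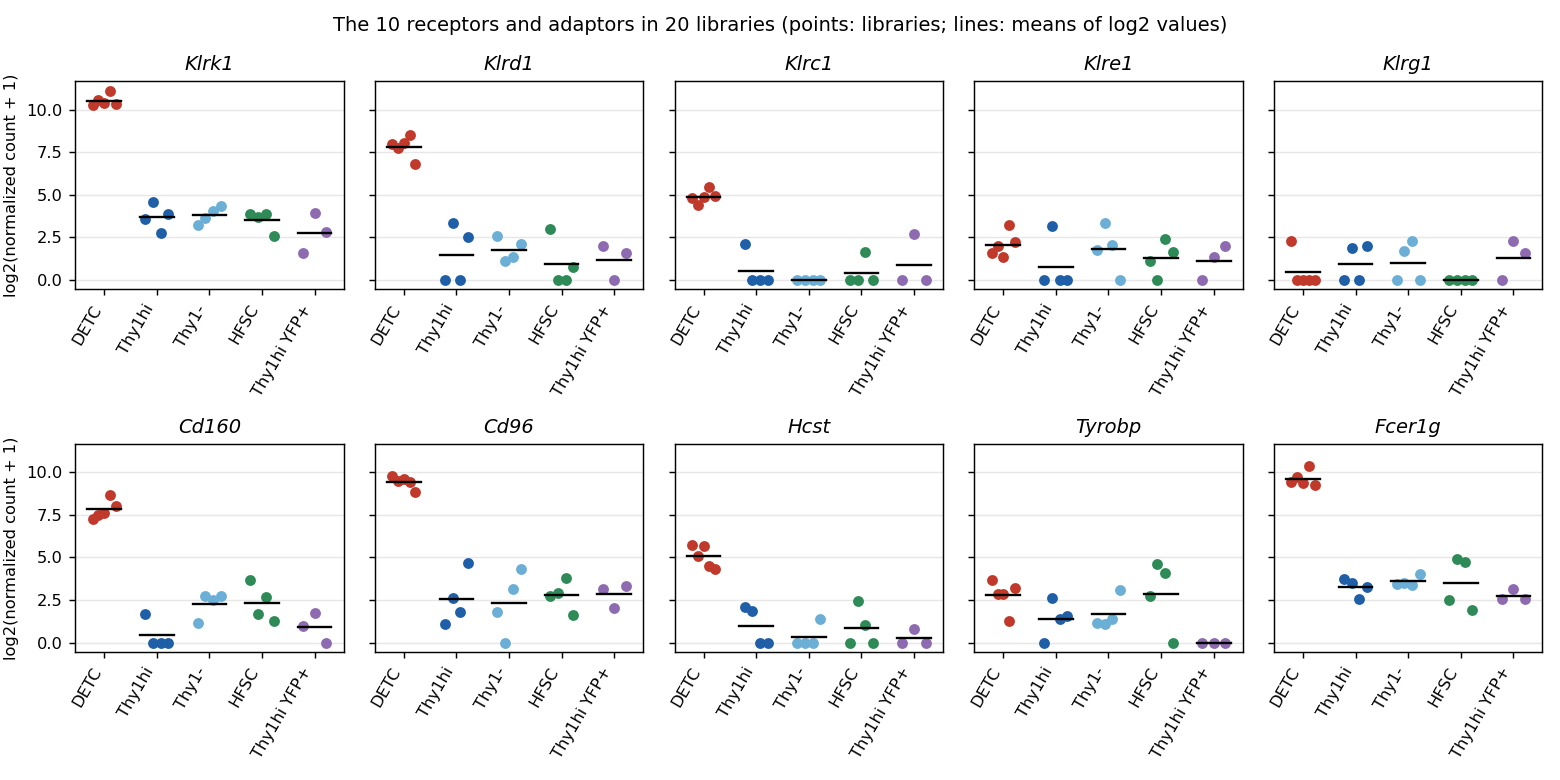
Log2(normalized count + 1) of the 10 members in each of 20 libraries, with 1 panel per gene, 1 point per library and a line at the mean of the log2 values of each population. In 7 panels all 5 DETC points lie above every other point, while *Tyrobp*, *Klre1* and *Klrg1* overlap between populations.

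*Klrk1*, the NKG2D gene, had 1218, 1518, 1316, 2220 and 1271 normalized counts in DETC 1, 2, 3, a and b. Thy1hi libraries 1 to 4 had 11.0, 22.4, 5.69 and 13.6, and Thy1- libraries 8.51, 11.6, 15.8 and 18.9. HFSC libraries had 13.9, 12.0, 13.9 and 4.90, and YFP+ libraries 1.99, 13.9 and 5.94. Every DETC library was therefore above every other library, and the other 4 populations overlapped. The log2 fold change was 6.84 against Thy1hi keratinocytes (standard error 0.43, adjusted p 2.38e-10), a mean of 1509 ± 413 (SD, n = 5) against 13.2 ± 6.97 (n = 4). By an exact two-sided permutation test the same difference gave 0.0159, the smallest p that 5 against 4 libraries allow. Differences were 6.70 against Thy1- keratinocytes, 7.01 against HFSCs and 7.76 against YFP+ cells, all on the log2 scale.

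*Klrd1* encodes CD94, which forms a receptor for the non-classical class I molecule Qa-1 with an NKG2 chain. It had 251, 212, 263, 365 and 109 normalized counts in the DETC libraries, in the same order. Of the 15 other libraries the highest, Thy1hi 2, had 9.22, and 5 had no read. DETC b was the lowest DETC library and still far above them. The log2 fold change against Thy1hi keratinocytes was 6.34 (standard error 0.74, adjusted p 8.46e-07), and 4.17 with a pseudocount of 10 in place of 1.

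*Klrc1*, which encodes NKG2A, the inhibitory partner of CD94, had 27.4, 20.3, 28.5, 42.5 and 28.8 normalized counts in DETCs. No read was found in the 4 Thy1- libraries, and the 15 keratinocyte libraries together held 12 reads. The mean in DETCs was at least 9.88-fold higher than the Thy1- floor of 3 reads per library. Against Thy1hi keratinocytes, where 3 reads were found in all, the ratio of pooled reads per size factor was 37.6, with an exact 95% interval of 12.6 to 185 that covers counting error only. Reads of *Klrc1* and its near-identical neighbours *Klrc2* and *Klrc3* may have been split by the counting, so the values of each are uncertain. Markers of NK cells and αβ T cells, which also carry CD94 and NKG2A, were present beside these genes in DETC libraries. Their summed level was 92.5 to 254 in DETCs and 3.96 to 53.2 elsewhere, and 4 of 5 had reads in every DETC library (*Trac* 67.3 to 145, *Cd8b1* 6.0 to 83.0). The NK gene *Ncr1* had 0 to 2 reads, and *Eomes*, a factor of NK and CD8 T cells, had a mean of 10.3 in DETCs, below the 22.8 of Thy1hi and 19.6 of Thy1- libraries. Their part in the *Klrd1* and *Klrc1* levels was not tested.

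*Klre1* and *Klrg1* were not tested because too few libraries reached 10 normalized counts. *Klre1*, whose product forms heterodimers with KLRI1 or KLRI2, had 2 to 6 reads per DETC library, 0 to 6 in Thy1hi, 0 to 8 in Thy1-, 0 to 4 in HFSC and 0 to 3 in YFP+ libraries. *Klrg1*, an inhibitory receptor for cadherins, had 4 reads in DETC 1 and none in the other 4 DETC libraries, which allow up to 3 reads each. Thy1hi libraries held 0 to 3, Thy1- and YFP+ libraries 0 to 5, and HFSC libraries none. No difference in either gene was detectable at this depth.

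*Cd160*, a lipid-anchored receptor for HVEM (*Tnfrsf14*), had 152, 180.0, 196, 402 and 263 normalized counts in DETC 1, 2, 3, a and b. Thy1hi libraries had 2 reads in all, both in replicate 1. Thy1- libraries had 1.22 to 5.79, HFSC libraries 1.40 to 11.5 and YFP+ libraries 0 to 2.32 normalized counts. Relative to Thy1hi keratinocytes the ratio of pooled reads was 444, with an exact 95% interval of 123 to 3668, and relative to Thy1- keratinocytes it was 49.7 (31.6 to 82.8). *Pdzk1*, whose exons overlap those of *Cd160*, was also higher in DETCs, at 66.5 to 98.5 normalized counts against 1.58 to 35.9, and whether reads were shared between the genes was not tested.

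*Cd96*, a receptor for the nectin-like molecule CD155 (*Pvr*), had 882, 719, 780.3, 686 and 453 normalized counts in DETCs. The other libraries ran from 0 in Thy1- 2 to 24.3 in Thy1hi 4, with population means between 6.66 and 8.27 that lay within the spread of their libraries. The log2 fold change of DETCs was 6.89 against Thy1hi (standard error 0.73, adjusted p 2.33e-07), 7.12 against Thy1-, 6.65 against HFSC and 6.59 against YFP+ libraries. *Cd96* is the 1 member whose value in Thy1- 4 was read from another row after the order of that column was restored.

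**Figure D2:**
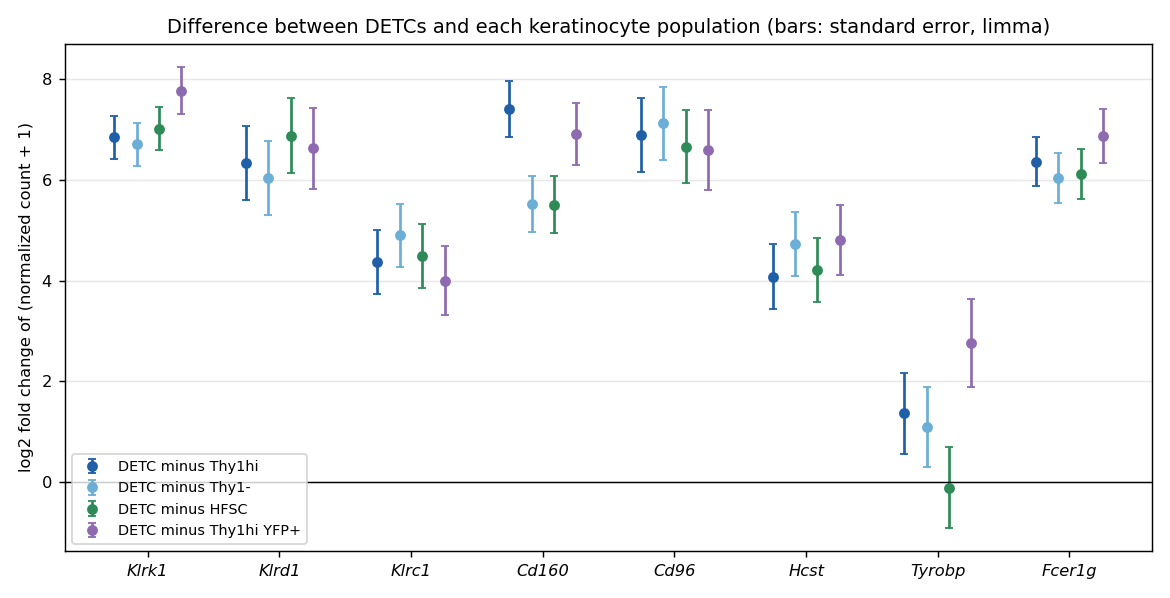
Log2 fold change of (normalized count + 1) between DETCs and each of 4 keratinocyte populations for the 8 members tested, as points with standard errors from limma. *Tyrobp* lies between -0.10 and 2.77, while the other 7 lie between 4.0 and 7.76.

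The adaptor genes differed among themselves. *Fcer1g* had 698, 844, 660.1, 1320 and 602 normalized counts in DETC 1, 2, 3, a and b, against 2.80 to 29.3 in the other 15 libraries. Its log2 fold change was 6.36 against Thy1hi keratinocytes (standard error 0.49, adjusted p 3.41e-09), 6.03 against Thy1- keratinocytes, 6.11 against HFSCs and 6.87 against YFP+ cells. *Hcst*, the DAP10 gene, had 51.9, 33.6, 49.8, 22.0 and 19.2 in the same DETC libraries and at most 4.34 elsewhere, where 13 reads were counted in 15 libraries. Its log2 fold change against Thy1hi keratinocytes was 4.08 (standard error 0.64, adjusted p 3.27e-05), and ran from 1.92 with a pseudocount of 10 to 5.89 with one of 0.1. For both genes all DETC libraries lay above all others.

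*Tyrobp*, the DAP12 gene, had 11.7, 6.10, 6.32, 1.37 and 8.41 normalized counts in DETCs, from 12, 6, 8, 1 and 7 reads. Thy1hi libraries had 0, 5.27, 1.63 and 1.94, Thy1- libraries 1.22, 1.16, 1.58 and 7.38, and all 3 YFP+ libraries had no read. HFSC libraries had 5.77, 23.9, 16.0 and 0. DETC libraries overlapped with those of Thy1hi, Thy1- and HFSC populations, and HFSC 2 and 3 were above every DETC library. The log2 fold change of DETCs was 1.37 against Thy1hi (standard error 0.80, adjusted p 0.201, exact p 0.0952), 1.10 against Thy1- (adjusted p 0.322) and -0.10 against HFSCs (adjusted p 0.932). Against YFP+ cells it was 2.77 (adjusted p 0.0157, range 0.00247 to 0.0693 over the alternatives), and the DETC mean was at least 2.46-fold above a floor of 3 reads per library. With a pseudocount of 10 or quantile normalization this call was lost (adjusted p 0.0693 and 0.0585). A difference of DETCs from Thy1hi keratinocytes or HFSCs in *Tyrobp* was therefore not shown, and at 0 to 22 reads per library the depth limits all of these values.

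Langerhans cells, the dendritic cells of the epidermis, are known to express both *Tyrobp* and *Fcer1g*. The summed level of their 9 markers was 2541, 5317, 3746 and 79.9 in HFSC 1 to 4, in the same order as *Tyrobp* there (5.77, 23.9, 16.0 and 0). Within DETCs, library a had both the lowest sum (1187) and the lowest *Tyrobp* (1.37), while DETC 2 had the highest sum (3416) and a *Tyrobp* of 6.10. The order was not kept everywhere. Thy1- 2 and 4 had sums of 2106 and 2103 with a *Tyrobp* of 1.16 and 7.38. YFP+ 2 had a sum of 1324 and no *Tyrobp* read. *Fcer1g* had 4.62, 29.3, 25.7 and 2.80 in HFSC 1 to 4. In DETCs, *Fcer1g* was highest in library a, where the Langerhans sum was lowest, and HFSC 2, with the highest sum of all 20 libraries, had 29.3. The part of Langerhans cell RNA in the *Tyrobp* and *Fcer1g* values was not tested. Mast cell markers, of another cell type that carries *Fcer1g*, summed to 0 to 2.03 in DETCs, with 4 of 5 at 0 in every DETC library.

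**Figure D3:**
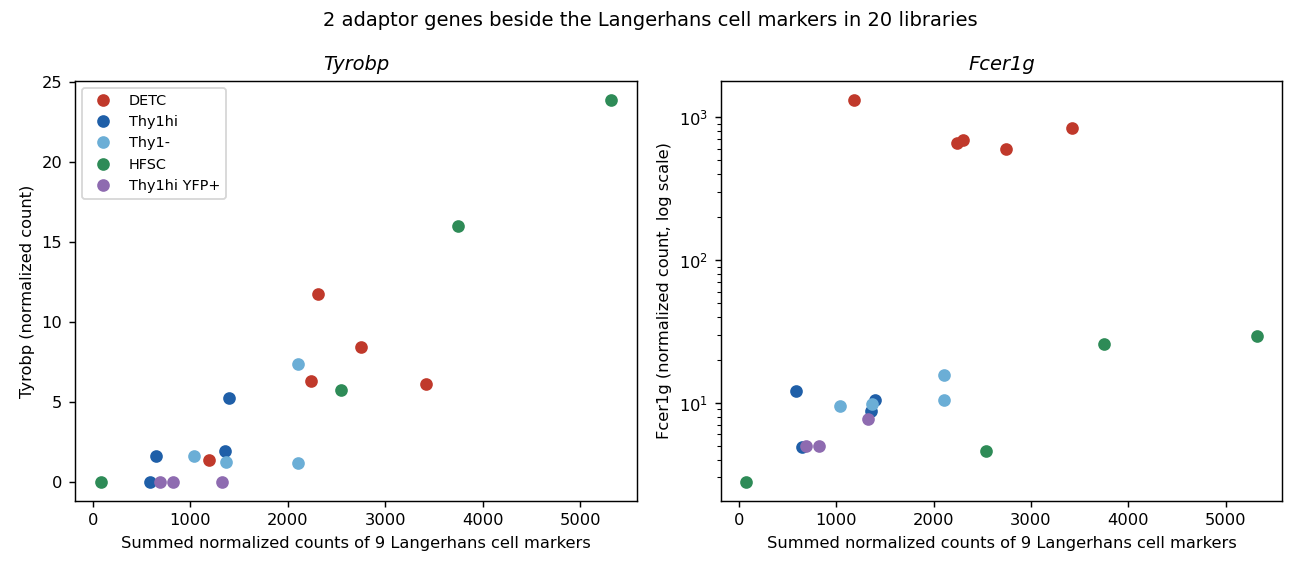
Normalized counts of *Tyrobp* (left, linear axis) and *Fcer1g* (right, log axis) against the summed normalized counts of 9 Langerhans cell markers, with 1 point per library coloured by population. The 2 highest *Tyrobp* values (16.0 and 23.9) belong to the HFSC libraries with the largest sums, while all *Fcer1g* values of 602 or more belong to DETCs.

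Levels can be compared between genes only per length, here as normalized counts per kilobase of merged exon in DETCs. *Fcer1g* had 944 ± 333 per kilobase (SD, n = 5), *Hcst* 48.9 ± 21.1 and *Tyrobp* 10.2 ± 5.67, in this order in all 5 libraries. Among receptors, *Cd96* had 322 ± 72.8, *Klrk1* 210.0 ± 57.6, *Klrd1* 187 ± 72.2, *Cd160* 90.3 ± 37.9 and *Klrc1* 14.9 ± 4.06 per kilobase, while *Klre1* had 1.05 and *Klrg1* 0.553. *Klrk1* was 2.36 to 10.2 times as high as *Hcst* per kilobase, and *Klrd1* was 5.87 to 16.1 times as high as *Klrc1* in the same libraries. The spreads of *Klrk1* and *Klrd1* overlapped, and *Klrd1* was the higher of the pair in 2 of the 5 libraries. Length correction assumes even coverage of the gene, which was not tested.

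**Figure D4:**
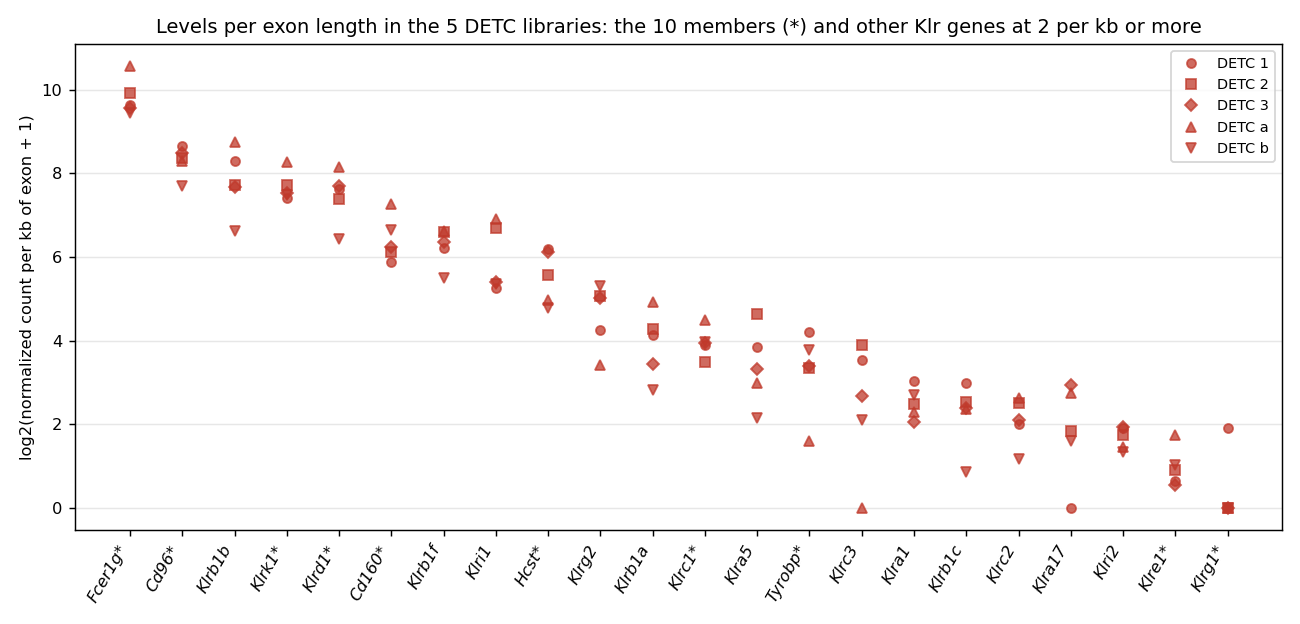
Log2(normalized count per kilobase of exon + 1) in the 5 DETC libraries, with 1 symbol per library, for the 10 members (asterisk) and for other *Klr* genes with a mean of at least 2 per kilobase, ordered by their mean. *Fcer1g* is highest and *Klre1* and *Klrg1* are lowest.

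Within DETCs, the libraries did not rank alike for all members. DETC a had the highest *Klrk1*, *Klrd1*, *Klrc1*, *Cd160* and *Fcer1g*, and also the highest summed level of the 8 T cell markers (47442, against 23088 to 31850.3 in the others). *Cd96* and *Hcst* did not follow it, with DETC 1 the highest for both (882 and 51.9) and DETC b the lowest (453 and 19.2). Relative to the T cell marker sum, the coefficient of variation between DETC libraries fell from 27.4% to 13.4% for *Klrk1* and from 35.3% to 12.1% for *Fcer1g*, and was 43.1% and 45.2% for *Hcst* before and after. *Cd160* in libraries a and b was 402 and 263, above the 152 to 196 of libraries 1 to 3, and *Hcst* in a and b was 22.0 and 19.2, below 33.6 to 51.9. Why the numbers of these 2 libraries match no label is not known, and no test was made between them and the rest.

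Among keratinocyte populations, the comparison of Thy1hi with Thy1- cells asks whether Thy1 marks keratinocytes with features of T cells. Of the 8 members tested, here and in the other comparisons among keratinocytes, 5 passed the filter only with DETC values counted. *Klrc1* and *Hcst* had at most 3 reads in any Thy1hi or Thy1- library. At such counts a difference could hardly be called, so that a lack of calls says little for these genes. None of the 8 members tested was called by limma (background 0.337% of 17204 genes), and 1 had an unadjusted p under 0.05. That gene was *Cd160*, lower in Thy1hi cells by -1.88 on the log2 scale (standard error 0.59, adjusted p 0.274, exact p 0.0571), from 2 reads in Thy1hi and 19 in Thy1- libraries. For *Klrk1* the difference was -0.13 (standard error 0.45, 0.13 with quantile normalization) and the ratio of pooled reads 0.851, with an interval of 0.570 to 1.26 from counting error. For *Fcer1g* it was -0.32 (standard error 0.52). edgeR and DESeq2 on whole reads also called 0 members, as did the fit with a replicate block.

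Against HFSCs, 1 of 8 members was called in Thy1hi keratinocytes, a share near the background of 13.4%. *Cd160* was lower in Thy1hi cells, with a log2 fold change of -1.89 (standard error 0.59, adjusted p 0.0375, range 0.0143 to 0.236 over the alternatives, exact p 0.0857). It had 0 to 2 reads in Thy1hi and 2 to 10 in HFSC libraries, and the groups overlapped. The call was lost without Thy1hi 2, 3 or 4 (adjusted p 0.0937, 0.0938 and 0.0686) and without HFSC 1 or 3 (0.131 and 0.0886). It was also lost with a pseudocount of 10 (0.236), no filter (0.0937), a mean of at least 50 (0.0773), the same total per library (0.0506) and only these 2 populations in the fit (0.119). Without HFSC 4, *Tyrobp* was called as well, lower in Thy1hi cells by -2.43 (adjusted p 0.0367), against -1.47 (adjusted p 0.260) with all libraries. Between Thy1- keratinocytes and HFSCs (background 6.08%), and between YFP+ and other Thy1hi keratinocytes (background 0.0116%), limma, edgeR and DESeq2 called 0 members, and 0 had an unadjusted p under 0.05 by limma. *Klrk1* was 7.29 ± 6.08 in YFP+ (n = 3) and 13.2 ± 6.97 in Thy1hi libraries (n = 4), a difference of -0.93 on the log2 scale (standard error 0.49, adjusted p 0.577).

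Keratinocyte libraries held few reads of the 7 members that were high in DETCs. As a share of the DETC mean, the median over 15 keratinocyte libraries was 0.792% for *Klrk1*, 0.820% for *Cd96*, 1.15% for *Fcer1g*, 0.910% for *Cd160* and 0.658% for *Klrd1*, and 0 for *Klrc1* and *Hcst*. For 7 of the 8 T cell markers the same median was 0.515% (*Trdc*) to 1.10% (*Itgae*), and it was 10.3% for *Cd3d*. The summed T cell markers were 0.396 to 1.49% of the DETC mean in these libraries, lowest in YFP+ 1 and highest in Thy1hi 2. The part of T cell RNA in these reads was not tested.

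**Figure D5:**
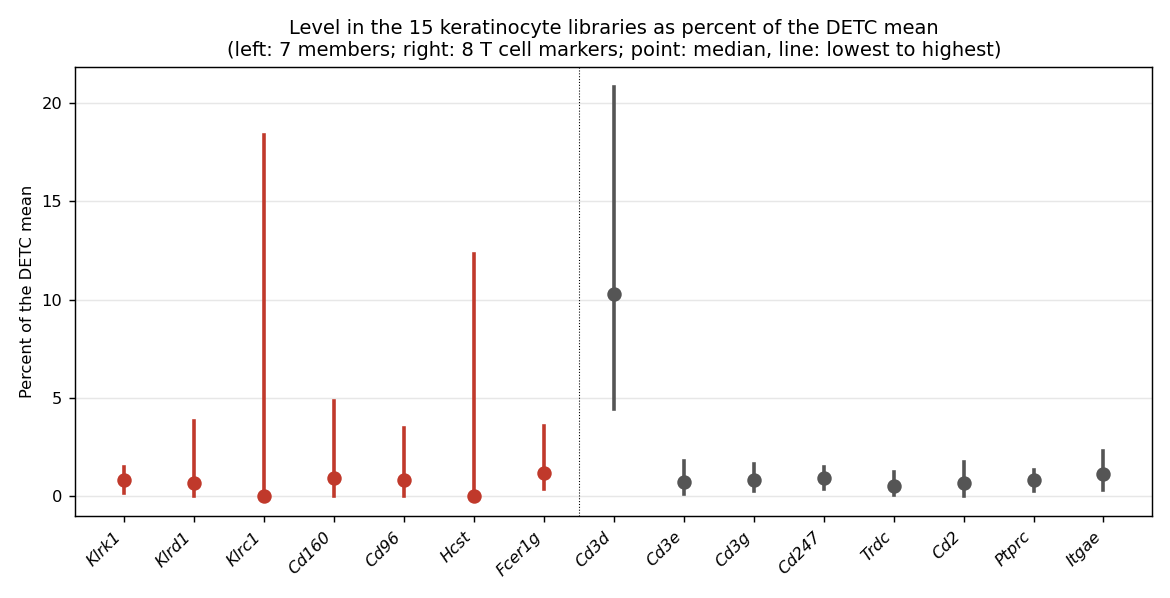
Level of 7 members and 8 T cell markers in the 15 keratinocyte libraries as a percentage of the DETC mean of the same gene, with a point at the median and a line from the lowest to the highest library. Medians are 0 to 1.15% for the members and 0.515 to 1.10% for 7 of the T cell markers, with *Cd3d* at 10.3%. The long lines of *Klrc1* and *Hcst* come from 7 and 4 reads at the most.

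The other *Klr* genes of the table were described for the same comparison. Of 30 genes whose name starts with *Klr*, 25 were not members, and 8 of these were tested against Thy1hi keratinocytes. The 7 called higher in DETCs, where 19.9% of all genes tested were called higher, reached 10 normalized counts in 3 libraries only with DETC values counted, so that being tested already depended on being high there and the count shows nothing more. The 1 gene that would have been tested without DETCs was called lower. *Klrb1b*, an inhibitory receptor of the NKR-P1 family, had 559 ± 279 normalized counts in DETCs and 6.53 ± 3.75 in Thy1hi cells (log2 fold change 6.21, adjusted p 3.96e-08), and *Klrb1f*, of the same family, had 158 ± 43.9 and 1.83 ± 1.75. *Klri1*, whose product pairs with KLRE1, had 57.3 ± 33.3 in DETCs and 1 read in Thy1hi libraries. Per kilobase it was 39.0 to 118 times as high as *Klre1* in the DETC libraries, ratios that rest on 2 to 6 *Klre1* reads per library and are uncertain. *Klrb1a* had 25.6 ± 14.2 and 0.610. *Klrg2* was this gene, with 89.2 ± 40.6 in DETCs and 295 ± 45.3 in Thy1hi cells (log2 fold change -1.86, adjusted p 6.45e-05), and was lowest in DETC a (32.9), the DETC library with the least keratinocyte RNA. *Klrc2*, the activating partner of CD94 that signals through DAP12, had 20.3 ± 9.07 and 2.12 ± 3.01.

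Ligands of the receptors differed in both directions. Of 18 names listed, 12 were found in the table and 8 were tested against Thy1hi keratinocytes, where 1 was called higher, 4 lower and 3 not called (median -0.50; of all genes tested, 19.9% were called higher and 16.6% lower). Against Thy1- keratinocytes 2 were called higher and 4 lower, against HFSCs 2 and 1, and against YFP+ cells 2 and 2. *H60c*, an NKG2D ligand of skin, had 40.7 ± 24.5 normalized counts in DETCs and 157 ± 54.2 in Thy1hi cells (log2 fold change -2.17, adjusted p 0.000722). *Nectin1* (815 ± 314 and 2022 ± 100.4) and *Nectin2* (155 ± 62.6 and 439 ± 90.5), of the family that CD96 and its relatives bind, were also lower, the call for *Nectin2* being lost in the deposited row order (adjusted p 0.366). *Pvr*, whose product CD155 is the ligand of CD96, was not called, at 282 ± 66.5 and 261 ± 67.0 (log2 fold change 0.12, adjusted p 0.816). Nor were *H2-T23*, the Qa-1 gene, at 272 and 240.4 (adjusted p 0.544), and *Ulbp1*, the MULT1 gene, at 52.9 and 31.1 (adjusted p 0.195), these 3 being named after their values were seen. For *Ulbp1* only Thy1hi libraries (25.0 to 46.6) overlapped the DETC range of 34.3 to 89.2. Its values were 6.31 to 19.7 in Thy1-, 4.34 to 15.0 in HFSC and 9.91 to 24.9 in YFP+ libraries, all below every DETC library. *Cdh1*, E-cadherin, the ligand of KLRG1, had 4242 ± 1150 in DETCs and 8927 ± 663 in Thy1hi cells. *Tnfrsf14*, the HVEM gene, was the one called higher than in Thy1hi cells, at 30.3 ± 11.7 and 8.80 ± 3.08 (log2 fold change 1.66, adjusted p 0.00899). *H60c* was 8.23 in DETC a and 23.4 to 69.7 in the other DETC libraries, where keratinocyte marker RNA was higher, and the part of that RNA in the ligand levels was not tested.

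Downstream signalling genes were mostly higher in DETCs. Of 25 tested, 18 were called higher than in Thy1hi keratinocytes, 3 lower and 4 not called (median 3.05), beside 19.9% and 16.6% of all genes tested. All but 1 of the 25 would have been tested without DETC libraries. *Pik3cd*, the leukocyte PI3-kinase subunit, had 2414 ± 720 normalized counts in DETCs and 23.8 ± 6.57 in Thy1hi cells. *Zap70*, the T cell kinase that binds tyrosine motifs, had 984 ± 320 and 12.4 ± 7.55. The scaffold gene *Lat* rose in the same way (768 ± 152 and 9.32 ± 6.34). *Syk*, the relative of *Zap70*, was lower in DETCs, at 43.9 ± 10.6 against 96.6 ± 8.25 (log2 fold change -1.15, adjusted p 0.000682), as was *Vav2* (87.0 ± 21.1 and 215 ± 38.9). *Plcg2* was the third called lower, 250.1 and 385, and is named after its value was seen. Its call was lost without Thy1hi 4 (adjusted p 0.0526) and with the replicate block (adjusted p 0.0942). Per kilobase in DETCs, *Zap70* had 329 ± 107 and *Syk* 4.68 ± 1.14. *Syk* was 30.2 normalized counts in DETC a and 38.7 to 59.0 in the other DETC libraries, where keratinocyte marker RNA was higher. The part of that RNA in the *Syk*, *Vav2* and *Plcg2* levels of DETCs was not tested.

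Receptors known to signal through DAP12 or the Fc receptor γ chain were rarely detected. Of 20 listed, 3 were tested and called higher in DETCs than in Thy1hi keratinocytes (background 19.9%). *Klrc2* and *Pilrb1* (10.4 ± 7.07 and no read in Thy1hi libraries) passed the filter only with DETC values counted, so that their calls followed from it. The third was, named after its value was seen, *Siglech* (32.8 and 11.5), which passed without DETCs and whose call was lost without Thy1hi 4 (adjusted p 0.0509). *Fcer1a*, the partner of the γ chain in mast cells, had 2 reads in DETCs, and *Fcgr3* had 2 to 8 reads per DETC library. Of 15 other lymphocyte receptors tested, 12 were called higher in DETCs, 0 lower, and *Ctla4*, *Lair1* and *Slamf6* were not called (median 3.75; background 19.9% higher and 16.6% lower). Of the 15, 11 would have been tested without DETC libraries, and 8 of these were called higher, while *Cd226*, *Crtam*, *Lag3* and *Pdcd1* passed only with DETC values counted. *Il2rb* (8867 ± 4211 and 68.0 ± 36.1), a chain of the interleukin receptor shared with NK cells, *Cd7* (1967 ± 394), *Cd244* (1269 ± 572) and *Tigit* (452 ± 179), which shares ligands with CD96, were the highest by fold change.

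The genes most like *Klrk1* over the 5 population means of log2 values, each centred on its own mean, were *Nrgn* (root mean square distance 0.034), *Ikzf1* (0.088), *Cd247* (0.11), *Arap3* (0.15) and *Nap1l5* (0.16), among 17199 other gene names. *Cd247* encodes a signalling chain of the T cell receptor and *Ikzf1* a lymphoid transcription factor. Those most like *Tyrobp* were *Gpr153* (0.093), *Reck* (0.20), *Slc25a23* (0.21), *Aebp1* (0.22) and *Zfp189* (0.23). *Gpr153* had means of 38.8 in DETCs, 17.8 in Thy1hi, 18.8 in Thy1-, 63.4 in HFSC and 13.9 in YFP+ libraries, and none of the 5 nearest to *Tyrobp* is on the lists of immune genes used here.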

How the data were processed

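Bulk RNA-seq had been made from 20 sorted samples. According to the study's methods the authors aligned single reads to mm10 with STAR, counted them per Ensembl gene with featureCounts and normalized them with DESeq2. The deposited table holds these normalized counts as a signal for 53380 genes, rounded to 2 decimals. Multiplying a column by its size factor (0.729 to 1.427) gave whole numbers of reads, within 0.1 reads, for 100% of values. How the counting treated strand and reads shared by genes, and which library kit was used for which sample, are not given in the sources used here. All columns were used.

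In Thy1- replicate 4, the values of 3212 genes stood in the order that names take with hyphens ignored and were put back. At 799 of them with a mean of at least 50, its correlation with the average of its 3 companion libraries rose from 0.019 to 0.951, against 0.973 to 0.986 in those as deposited.

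Genes with at least 10 normalized counts in at least 3 libraries (17204) were tested two-sided with limma 3.58.1 (trend) in R 4.3.3 on log2(value + 1). The model held the 20 libraries and a mean for each population, without covariates, with Benjamini-Hochberg adjustment and a threshold of 0.05. Fold changes are on that scale and understate the change of low genes. Exact permutation tests of mean log2 values used scipy 1.17.1 in Python 3.11.15. The smallest p they allow is 0.0159 for 5 against 4 libraries, 0.0357 for 5 against 3, 0.0286 for 4 against 4 and 0.0571 for 4 against 3. Ratios of pooled reads carry exact (Clopper-Pearson) 95% intervals, which with the floors of 3 reads cover counting error only. edgeR 4.0.16 and DESeq2 1.42.0 were run on the recovered reads as alternatives, beside other pseudocounts, filters and scalings, a replicate block, the deposited row order and each library left out. Positions and exon lengths are from GENCODE M21, whose coordinates equal those of the table, and promoters from RefSeq.

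Deviations from population means were correlated to see whether replicate numbers pair libraries. Same-numbered Thy1hi and Thy1- libraries had r of 0.293 to 0.716 (4 pairs) and DETCs and HFSCs 0.170 to 0.333 (3 pairs), while other comparisons had at least 1 pair below 0.1. Differently numbered pairs had -0.651 to 0.514 for Thy1hi and Thy1- libraries and -0.318 to 0.371 for DETCs and HFSCs. These ranges overlap those of the same-numbered pairs. Each Thy1hi library had its highest r with the Thy1- library of its own number. Thy1- 1, however, had 0.514 with Thy1hi 2 and 0.293 with Thy1hi 1. The values therefore do not settle a pairing, and the main fit used none. The labels name no shared animal or day.

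The members and gene lists were chosen with earlier results of these data known. Named genes are the members, up to 4 called genes per list and direction with the largest change between DETCs and Thy1hi cells whose libraries do not overlap, and the 5 genes most like *Klrk1* and *Tyrobp*. Of these, 1 gene is counted with its list but not reported here by name. Single-cell, staining and lineage data were not analysed here.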

Additional observations from a re-analysis of the deposited data

Results flagged for a closer look

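Of 38 sets of values of 1 member in 1 population with 4 or 5 libraries, 9 held a library that lay far from the others by Dixon's ratio. Chance alone gives this in about 1 in 20 for continuous, normally distributed values, which low read counts are not. Where only 1 library has a read, the ratio takes its largest value by construction. The number of flags can therefore not be set against that rate. All 9 rest on few reads. In Thy1- replicate 4, *Fcer1g* was 15.6 normalized counts (19 reads; the nearest library had 10.4), *Tyrobp* was 7.38 (9 reads; nearest 1.58) and *Hcst* was 1.64 (2 reads; nearest 0). *Klrd1* was 6.93 in HFSC 1 (6 reads; nearest 0.70), *Klre1* was 7.90 in Thy1hi 2 (6 reads) and *Klrg1* was 3.91 in DETC 1 (4 reads). In Thy1hi 1, *Klrc1* was 3.31 and *Cd160* was 2.21, and in HFSC 3 *Klrc1* was 2.14. In the last 5 of these the other libraries had no read.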

How the results depend on the processing

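The 28 fold changes of the 7 members that were higher in DETCs (4 comparisons each) kept their direction and their call in all 860 values computed under the alternatives, which include each of the 20 libraries left out. Many of these values could not move the fold change. Leaving out a library of a population outside the comparison, or changing the filter, alters only the estimate of spread and the adjustment. The number of members called against Thy1hi, Thy1- and HFSC populations was 5 to 7 under every alternative, the 5 where a mean of at least 50 left only 5 members to test. Against YFP+ cells it fell from 8 to 5 under that filter and was 7 or 8 with a library left out, the 7 where *Tyrobp* no longer passed the filter (without DETC 1, HFSC 2 or HFSC 3). Against HFSCs, Thy1hi cells had 0 members called instead of 1 with a pseudocount of 10, no filter, a mean of at least 50, the same total per library or only 2 populations in the fit, and 0 to 2 with a library left out. With the replicate block, 0 members were called between Thy1hi and Thy1- cells and 7 between DETCs and HFSCs, and no call of a member changed in any comparison. DETC a and b each stand alone in their block, so that DETC comparisons with it rest on DETC 1 to 3. The block also links libraries only because they share a number. Of 734 values for 24 other genes between DETCs and Thy1hi cells, many of which likewise could not move the fold change, 730 kept direction and call. *Nectin2* lost it in the deposited row order (adjusted p 0.366), *Siglech* without Thy1hi 4, and *Plcg2* without Thy1hi 4 and with the block (adjusted p 0.0942). The size of the fold changes depended on the pseudocount (10 and 0.1) for members with few keratinocyte reads: against Thy1hi cells *Klrc1* was 1.86 and 6.90, *Hcst* 1.92 and 5.89, *Klrd1* 4.17 and 8.08 and *Cd160* 4.48 and 10.0. Among the differences without a call that were recomputed (those of *Tyrobp* and *Cd160*, and some of *Klrk1* and *Fcer1g*), 4 turned sign, and other members were not examined in this way. *Tyrobp* between DETCs and HFSCs went from -0.10 to 0.55 with a pseudocount of 0.1, 0.033 with the same total and 0.10 with the block (-1.06 to 0.28 with a library left out). *Tyrobp* between Thy1hi and Thy1- cells went from -0.27 to 0.036 with quantile normalization (-0.69 to 0.19), and *Klrk1* there from -0.13 to 0.13 (-0.42 to 0.18). *Cd160* between Thy1- cells and HFSCs went from -0.014 to 0.0055 with a pseudocount of 0.1 and 0.20 with the same total (-0.36 to 0.43). The cause was not tested. *Klre1* and *Klrg1*, with at most 8 reads in any library, and *Tyrobp*, with at most 22, are limited by depth.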
